A study of Mus musculus with 6 samples.

Results

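The miR-132 and miR-212 cluster is a pair of neighbouring miRNA hairpins on mouse chromosome 11, each of which yields a 5p and a 3p mature arm. All 4 arms, mmu-miR-132-3p, mmu-miR-132-5p, mmu-miR-212-3p and mmu-miR-212-5p (the prefix is left out from here on), were on the array, among 1247 mouse miRNAs, of which 166 were detected on all 6 arrays. The cluster was chosen from the signals and detection flags of these CCl4 and corn oil arrays, so the values of its members are given as a description and without a test.

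Both miRNAs are processed from a shared primary transcript, and their 3p arms have the same seed, the bases that pair with target mRNAs. In neurons, where they are abundant, the transcript is induced by the transcription factor CREB, and in monocytes miR-132 is induced by bacterial endotoxin.

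Total RNA came from whole liver of male C57BL/6 mice that were 7 weeks old when treatment began. Treatment lasted 10 weeks, with 2 intraperitoneal injections per week. Those of the CCl4 group (n = 3) held the hepatotoxin carbon tetrachloride at 0.6 mL/kg, with corn oil as the vehicle, and those of the control group (n = 3) an equal amount of vehicle alone. RNA labeled with Cy3 was hybridized to 1-colour arrays, 1 array per mouse. In whole tissue, fewer cells of a type and less RNA per cell cannot be told apart.

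Each of the 4 arms was read by 2 probes of 20 spots each, which gave 40 spots per arm and array, and none of the 49880 miRNA spots of an array was saturated. Signals are background-subtracted intensities, and the total signal of a miRNA sums those of its detected probes, with 0.1 entered where the miRNA was not detected. All arrays lay on 1 slide, the CCl4 arrays in row 1 and the corn oil arrays in row 2, so that slide position and treatment cannot be told apart.

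CCl4 replicate 3 stood apart from the other arrays. It detected 334 miRNAs, against 245 and 227 on CCl4 replicates 1 and 2 and 193, 186 and 187 on the corn oil arrays, and 111 miRNAs were detected there alone. The rank correlation of the 166 miRNA signals was 0.979 between CCl4 replicates 1 and 2, and 0.860 and 0.856 between these and CCl4 replicate 3. The scanner software had also used a feature size fraction of 0.818 for this array in place of the default of 0.6 used for the others, which makes its total signals 1.36-fold larger for the same spot signal. Spot signals do not contain this factor.

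The mature sequences show what the probes had to tell apart and are printed 5′ to 3′ with the seed, bases 2 to 8, in capitals. They are from RefSeq (GRCm38.p6), which held all 4 arms and 1017 of the 1247 miRNAs on the array.
miR-132-3p: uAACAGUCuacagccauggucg
miR-212-3p: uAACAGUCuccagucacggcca
miR-132-5p: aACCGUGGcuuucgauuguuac
miR-212-5p: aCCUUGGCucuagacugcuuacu
The 3p arms were identical at 17 of 22 bases and shared the first 9. Counted from the 5′ end, with the base of miR-132-3p first, the substitutions were A10C, C14U, U17C, U20C and G22A. Among 1679 mature mouse miRNA names in the reference table, no other had the seed of the 3p arms, and neither 5p arm shared its seed with any.

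On the plus strand of chromosome 11 (GRCm38.p6), miR-212-3p lies at chr11:75173443-75173464 and miR-132-3p at chr11:75173723-75173744. The hairpins are shown because the arms that differed in detection come from the same 2 precursors, with the mature arms in capitals.
Mir212: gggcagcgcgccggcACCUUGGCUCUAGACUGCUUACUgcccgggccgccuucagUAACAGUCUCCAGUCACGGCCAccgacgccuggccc
Mir132: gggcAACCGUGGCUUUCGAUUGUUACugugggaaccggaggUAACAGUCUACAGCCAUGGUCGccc
Mir212 spans chr11:75173388-75173478 and Mir132 chr11:75173682-75173747, with 203 bases between them. Among 3087 chromosome 11 genes of any kind in the gene table, 0 others overlap them, and the nearest protein-coding genes are Hic1 and Ovca2.

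The 3p arms differed in where they were detected. MiR-212-3p was detected in all 3 corn oil and all 3 CCl4 livers, miR-132-3p in none of the corn oil livers and in all 3 CCl4 livers, and the 5p arms in no liver.

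The total signal of miR-212-3p (mmu-miR-212-3p) was 110, 102 and 99.3 in corn oil replicates 1 to 3 and 97.8, 94.1 and 147 in CCl4 replicates 1 to 3, with errors from the scanner software between 7.66 and 11.8. All of its 40 spots were well above background on every array. CCl4 replicate 3 was the highest array and CCl4 replicate 2 the lowest, and the groups overlapped. The means were 104 ± 5.39 with corn oil and 113 ± 29.4 with CCl4 (SD, n = 3). With the total of CCl4 replicate 3 brought to the default feature size, which gave 108, the CCl4 mean was 99.9 ± 7.07. Either way, the means differed by less than the SD of the CCl4 group.

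The probes of miR-212-3p gave like results when read separately. The median spot signal of probe A_54_P2616 was 97.1, 90.9 and 93.5 with corn oil and 92.4, 84.7 and 102 with CCl4. That of probe A_54_P2617 was 296, 270 and 256 with corn oil and 250, 254 and 282 with CCl4. For both probes the groups overlapped, and the ratio of the CCl4 mean to the corn oil mean was 0.993 for A_54_P2616 (93.8 ± 3.14 with corn oil, 93.2 ± 8.90 with CCl4) and 0.956 for A_54_P2617 (274 ± 20.6 and 262 ± 17.2). Without CCl4 replicate 3, both remaining CCl4 arrays were below all corn oil arrays at A_54_P2617, and at A_54_P2616 they still overlapped.

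**Figure D1:**
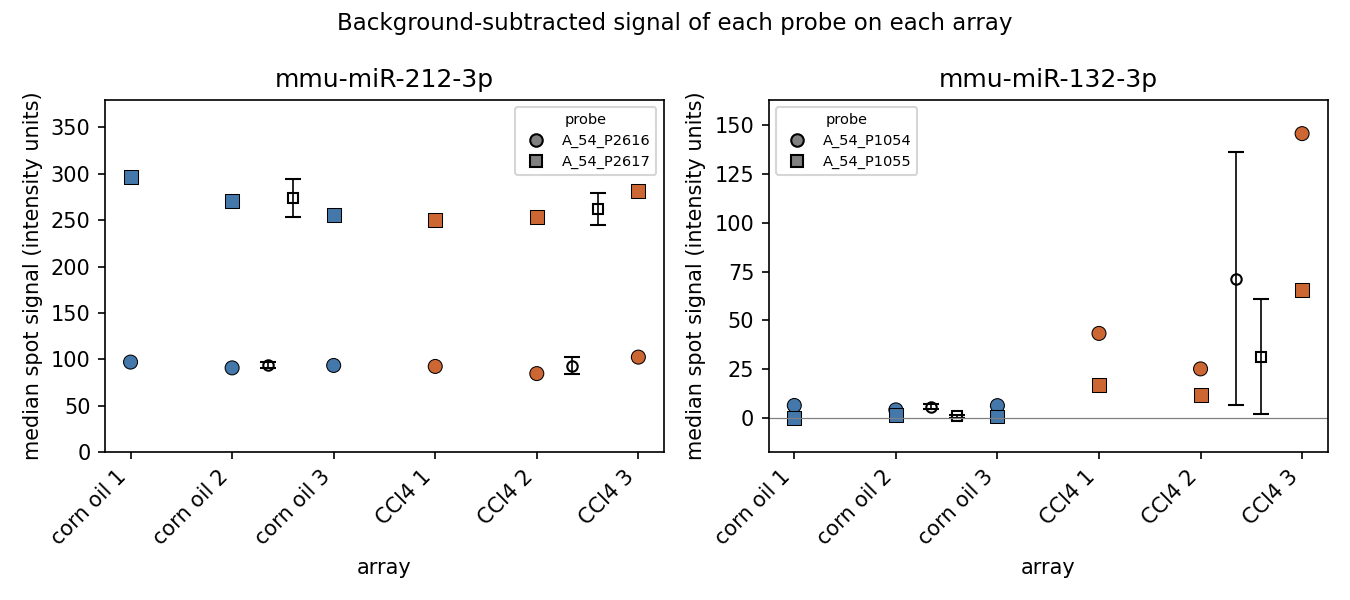
Median background-subtracted spot signal (intensity units, linear axis) of each probe of miR-212-3p (left) and miR-132-3p (right) on each array, over 20 spots per probe and array; blue, corn oil; orange, CCl4; open symbols with bars, group mean ± SD (n = 3). The groups overlap at both probes of miR-212-3p, between 84.7 and 102 for A_54_P2616, and do not overlap at either probe of miR-132-3p, for which CCl4 replicate 3 is the highest array.

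The total signal of miR-212-3p lay between 94.1 and 110 on all arrays but CCl4 replicate 3, while most other detected miRNAs were brighter on the CCl4 arrays. The median total signal of the 166 miRNAs was 34.2, 30.1 and 32.2 with corn oil and 64.4, 52.9 and 175 with CCl4, and their median log2 difference, CCl4 minus corn oil, was 0.99 before normalization, 0.85 with totals divided by the feature size fraction and 0.45 without CCl4 replicate 3. By total signal, miR-212-3p ranked 52nd, 51st and 55th of 166 with corn oil and 75th, 68th and 88th with CCl4. Its rank was thus lower on every CCl4 array than on any corn oil array. Before normalization its own log2 difference was 0.094, and 151 miRNAs had a larger difference and 14 a smaller one.

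After quantile normalization, which gives all arrays the same distribution, the log2 signal of miR-212-3p was 7.38, 7.42 and 7.19 with corn oil and 6.09, 6.39 and 5.54 with CCl4. The groups no longer overlapped, and CCl4 replicate 3, the highest array before normalization, was the lowest. The means were 7.33 ± 0.12 and 6.01 ± 0.43 (SD, n = 3), a difference of −1.32, while the median difference of all 166 miRNAs was −0.14. Of the 166, 41 (24.7%) had lower values on all CCl4 arrays than on any corn oil array, a share from the contrast that chose the cluster and from which nothing is read about it.

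The size of the miR-212-3p difference followed the scaling. Scaled to the 75th percentile of the 166 miRNAs, the difference was −1.06, and after cyclic loess it was −1.11. Scaled to the labeling spike-ins, RNAs added in known amounts, its log2 signal was 6.90, 6.75 and 6.98 with corn oil and 6.69, 6.44 and 6.69 with CCl4. The groups did not overlap on this scale either, as for 8 of the 166 miRNAs (4.82%) that were lower on all CCl4 arrays, and the difference was −0.27, where the median of all 166 was 0.63. For total signals divided by the feature size fraction it was −0.055, with overlapping groups. Without CCl4 replicate 3 it was −1.10 after quantile normalization and −0.11 with no normalization, so the sign of the unnormalized difference rested on this array. The unnormalized groups did not overlap without it, as for 17 of the 166 miRNAs (10.2%) in the lower direction. These shares come from the contrast that chose the cluster, and nothing is read from them.

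**Figure D2:**
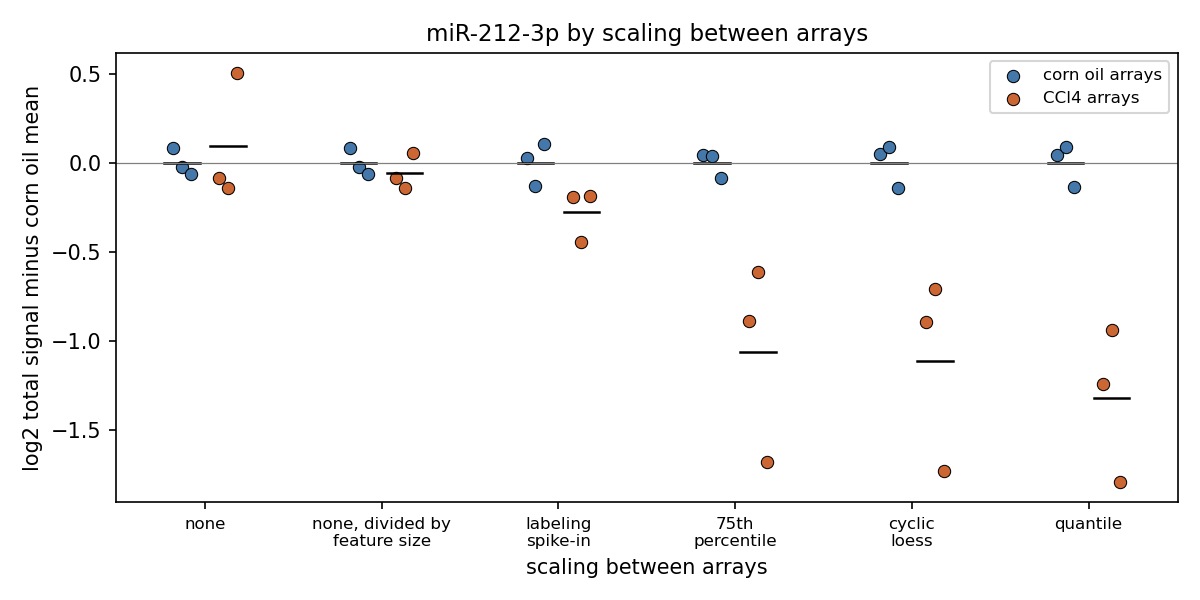
Log2 total signal of miR-212-3p on each array (points) with the group mean (lines), minus the corn oil mean, under 6 scalings between arrays named on the horizontal axis. The difference between the group means runs from 0.094 with no scaling, through −0.055 and −0.27, to −1.06, −1.11 and −1.32 for 75th percentile, cyclic loess and quantile scaling.

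MiR-132-3p (mmu-miR-132-3p), the arm with the seed of miR-212-3p, was below detection in the corn oil livers, where its total signal was listed at 0.1 on all 3 arrays. With CCl4 its total signal was 17.0, 7.13 and 82.0, with errors of 2.16, 1.45 and 6.73. CCl4 replicate 3 was by far the highest, and remained so at 60.2 when brought to the default feature size. On CCl4 replicate 2 the total equalled the signal of A_54_P1054 alone, and that of A_54_P1055, 3.45 with an error of 1.30, was not in it.

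The spots of miR-132-3p showed the same order. Of its 40 spots, 1, 0 and 0 passed the well-above-background flag with corn oil and 26, 13 and 40 with CCl4. Detection was thus complete only in CCl4 replicate 3 and partial in the other CCl4 livers, where under 50% of the spots, 32.5%, passed on replicate 2. Of the 1247 miRNAs, 22 (1.76%) were, like it, detected in every CCl4 liver and in no corn oil liver, a share given without a reading, and 4 of these 22 had a higher share of spots well above background on their dimmest CCl4 array than miR-132-3p. With CCl4 replicate 3 left out, 29 miRNAs had this pattern, miR-132-3p among them.

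Both probes of miR-132-3p were brighter with CCl4. The median spot signal of A_54_P1054 was 6.46, 4.20 and 6.37 with corn oil and 43.4, 25.2 and 146 with CCl4. That of A_54_P1055 was 0.078, 1.61 and 0.805 with corn oil and 17.0, 11.8 and 65.5 with CCl4. The groups did not overlap at either probe, with or without CCl4 replicate 3. In the corn oil livers 36 of 60 spots of A_54_P1054 were flagged as significantly above background, a weaker flag than well above background, against 13 of 60 for A_54_P1055. With CCl4 all 60 spots of each probe had this flag. Of 1243 miRNAs with at least 2 probes, 149 (12.0%) had every probe brighter on all CCl4 arrays than on any corn oil array, and this share too is given without a reading.

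Spots of miR-132-3p well above background numbered 1 of 60 with corn oil and 53 of 60 with CCl4 for A_54_P1054, and 0 of 60 and 26 of 60 for A_54_P1055. The probes thus differed in how many CCl4 arrays measured the miRNA, 3 for the former and 1 for the latter, if over 50% of the spots must be well above background. For A_54_P1054 the CCl4 mean was at least 1.27-fold that of the corn oil group after scaling each array to its 75th percentile. This bound sets the mean log2 signal of the CCl4 arrays against the lowest signal of any probe well above background on each corn oil array. Without scaling it was 2.52-fold, or 1.54-fold with CCl4 replicate 3 left out, and without CCl4 replicate 3 the scaled bound fell under 1 and no fold is given. No fold is given for A_54_P1055 either.

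Over all 40 spots, and with each array scaled to the 75th percentile, the median spot signal of miR-132-3p was 3.56, 4.03 and 4.01 with corn oil and 26.0, 18.9 and 42.9 with CCl4. All CCl4 arrays lay above all corn oil arrays on this scale, which lowered CCl4 replicate 3 most. The means were 3.87 ± 0.27 and 29.2 ± 12.3 (SD, n = 3), a difference of 25.4, and of 18.6 without CCl4 replicate 3. With no scaling the difference was 47.9, and 22.9 without CCl4 replicate 3.

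The 5p arms are cut from the same hairpins as the 3p arms and have other seeds. MiR-132-5p was not detected on any array, with probe medians of at most 0.80 and 1 spot well above background, on CCl4 replicate 1. MiR-212-5p was not detected either, with probe medians of at most 5.20 and no spot well above background. The highest of these medians was that of A_54_P00004939 on CCl4 replicate 3. Since neither 5p arm was well above background with corn oil or CCl4, no difference is given for them.

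The miRNAs whose quantile-normalized profile over the 6 arrays was nearest to that of miR-212-3p were miR-202-3p and members of the miR-378 family. Root mean square distances between profiles centred on their own means were 0.084 for miR-202-3p, 0.099 for miR-378a-3p, 0.13 for miR-378d, 0.16 for miR-378b and 0.18 for miR-652-5p, where the median over 165 miRNAs was 0.77. MiR-202-3p had 5.54, 5.42 and 5.42 with corn oil and 4.30, 4.47 and 3.75 with CCl4, and like miR-212-3p it was lowest on CCl4 replicate 3. Before normalization these 5 miRNAs, too, had log2 differences near 0, namely 0.00, 0.03, −0.09, −0.03 and 0.25. They were picked for their likeness to miR-212-3p, so their own differences after normalization, −1.29, −1.37, −1.46, −1.42 and −1.04, have no test here.

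In the limma fit over the 166 miRNAs, 20 (12.0%) passed an adjusted p of 0.05 and a 2-fold change, 12 (7.23%) higher and 8 (4.82%) lower with CCl4. With scaling to the median, 10 were higher and 17 lower, and with no normalization 18 were higher and limma called 0 lower, also 0 at an unadjusted p under 0.05. MiR-212-3p was among the 166 fitted and among the 8 lower, which is not read as a test because it was chosen on this contrast. Test values are given for miRNAs outside the cluster.

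Of the 5 miRNA genes nearest to the cluster on each side, Mir195a, Mir22, Mir423 and Mir144 had an arm detected on all arrays. MiR-22-5p, from the nearest miRNA gene on the Ovca2 side, had total signals of 20.6, 19.8 and 21.1 with corn oil and 17.8, 18.5 and 37.2 with CCl4. These overlapped before normalization, and as for miR-212-3p, CCl4 replicate 3 was the highest array. After quantile normalization miR-22-5p fell by 1.03 on the log2 scale (limma, adjusted p = 0.015). Before normalization its direction was the opposite, at 0.17, which rested on CCl4 replicate 3: the value was −0.17 without that array and 0.021 with totals divided by the feature size fraction. Its difference was short of 2-fold without CCl4 replicate 3 (−0.92), with 75th percentile scaling (−0.98), cyclic loess (−0.92), normexp background correction (−0.34) and spike-in scaling (−0.20). With no detection filter its adjusted p was 0.39, and leaving out CCl4 replicate 1 or any corn oil array raised the adjusted p to between 0.061 and 0.096. In limma with a block for the scanner replicate number, the adjusted p of miR-22-5p was 0.090. The other arms detected on all arrays did not pass, with differences of −0.38 for miR-22-3p, 0.38 for miR-195a-5p, −0.27 for miR-423-5p and −0.50 for miR-144-3p, and these 4 were also above 0 before normalization.

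Because miR-132 is induced by endotoxin in monocytes, a list of 8 other miRNAs induced by endotoxin or NF-kB signals was examined beside it. On all arrays 4 of them were detected, and limma called 0 of these 4, with 1 at an unadjusted p under 0.05. Their median log2 difference was 0.47, against −0.14 for all 166. MiR-125a-5p had 1.23 (limma, adjusted p = 0.16), miR-125b-5p 0.88 (adjusted p = 0.27) and miR-21a-5p −0.30 (adjusted p = 0.77). Without CCl4 replicate 3 these were 0.68 (limma, adjusted p = 0.023), 0.39 (adjusted p = 0.28) and 0.47 (adjusted p = 0.0018), all short of 2-fold. MiR-21a-5p thus changed sign, as it did before normalization (0.55). The remaining tested member, miR-146a-5p, had 0.06 (limma, adjusted p = 0.81), and 0.09 without CCl4 replicate 3 (adjusted p = 0.53). Like miR-132-3p, miR-146b-5p, a brake on Toll-like receptor signals, was detected with CCl4 (3 of 3 arrays) and not with corn oil, with totals of 8.74, 4.31 and 6.26, but it was not highest on CCl4 replicate 3. Its lowest share of spots well above background on a CCl4 array was 0%, against 32.5% for miR-132-3p. MiR-155-5p was detected on CCl4 replicate 1 alone, and miR-147-3p and miR-9-5p on no array.

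Hepatic stellate cells make most of the collagen of a fibrotic liver. Of 15 miRNAs known from these cells and from fibrosis, 11 were tested and 3 rose, where 12 of all 166 (7.23%) did. The list was chosen with earlier results of these data known, so nothing is read from this share. The median difference of the 11 was 0.06, against −0.14 for all 166. MiR-199b-5p had a log2 difference of 2.28 (limma, adjusted p = 0.016), miR-34a-5p 1.71 (adjusted p = 0.026) and miR-199a-5p 1.34 (adjusted p = 0.032). MiR-194-5p had −1.97 (adjusted p = 0.28), or −0.71 without CCl4 replicate 3, and did not pass. The 3 that rose were higher on every CCl4 array than on any corn oil array after normalization, as were 24 of the 166 (14.5%), and without CCl4 replicate 3 their differences were 2.08, 1.49 and 1.35; before normalization, too, they were above 0. Leaving out CCl4 replicate 1, corn oil replicate 2 or corn oil replicate 3 ended all 3 calls, with adjusted p between 0.061 and 0.14, and leaving out corn oil replicate 1 ended those of miR-199b-5p (adjusted p = 0.078) and miR-199a-5p (adjusted p = 0.12). Normexp background correction ended the same 2, with differences of 0.90 and 0.48, and with no detection filter all 3 were lost, with adjusted p between 0.27 and 0.39. A limma fit with a block for the scanner replicate number ended the calls of miR-34a-5p and miR-199a-5p (adjusted p = 0.090 for both). It kept that of miR-199b-5p (adjusted p = 0.042).

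Total signals summed over lists of cell type markers were highest on CCl4 replicate 3 for all but the hepatocyte list, which was lowest there. MiR-132-3p was also highest on this array, and the part of such cells in its values was not tested. The summed total signal of 7 neuron miRNAs was 0 on all corn oil arrays and 4.72, 0 and 247 on CCl4 replicates 1, 2 and 3. On CCl4 replicate 3, 4 of these 7 were detected, as were 334 of all 1247 miRNAs (26.8%). MiR-218-5p had the highest total signal of the 7 on that array, and miR-9-5p, miR-9-3p and miR-138-5p were undetected on all arrays. On CCl4 replicate 2, where miR-132-3p was detected, none of the neuron miRNAs was.

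The 3 endocrine miRNAs, of which miR-7a-5p had the highest total signal, summed to 10.9, 9.65 and 9.75 with corn oil and 13.5, 9.87 and 1952 with CCl4, so that CCl4 replicate 3 alone was high. MiR-375-3p had 769 there and was undetected on all other arrays, and the hepatocyte miR-122-5p was at 2158, against 13110 or more elsewhere. Whether this sample held RNA of another tissue, and whether that bears on its miR-132-3p signal, was not tested. The 6 immune miRNAs summed to 102, 87.5 and 102 with corn oil and 547, 402 and 631 with CCl4. The member with the highest total signal was miR-142-3p on each corn oil array, miR-223-3p on CCl4 replicates 1 and 2 and miR-342-3p on CCl4 replicate 3. The 6 mesenchymal miRNAs, led by miR-199a-3p, summed to 82.0, 67.2 and 109 with corn oil and to 643, 255 and 1236 with CCl4. For both of these lists the groups did not overlap, as was also so for the endothelial list, likewise higher with CCl4. These sums are not normalized, and before normalization the median log2 difference of the 166 miRNAs was 0.99. At the default feature size the sums on CCl4 replicate 3 were 463 and 907, so that the mesenchymal miRNAs were highest there and the immune miRNAs on CCl4 replicate 1. The endothelial, red cell, neuron and endocrine sums, at 2739, 1567, 181 and 1433, were also highest on CCl4 replicate 3 at this size. Being highest on that array, as miR-132-3p was, is thus not particular to the mesenchymal list. Detected on all arrays were 3 of the immune miRNAs, of which limma called 0 (1 at an unadjusted p under 0.05), and 4 of the mesenchymal ones, of which miR-199a-5p and miR-199b-5p, already counted, rose. The 1 immune miRNA was miR-342-3p, which passed the adjusted p (0.014) but not the 2-fold change, with a log2 difference of 0.85. It passed both with 75th percentile scaling (1.11), cyclic loess (1.02) and the deposited values (1.18), while leaving out CCl4 replicate 1 or any corn oil array raised its adjusted p to between 0.061 and 0.086. With a block for the scanner replicate number its adjusted p in limma was 0.090. With no normalization all 3 of these immune miRNAs passed, and without CCl4 replicate 3 miR-223-3p did, with a log2 difference of 1.75 (limma, adjusted p = 0.0018), against 1.18 (adjusted p = 0.18) on all arrays.

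The 5 hepatocyte miRNAs, led by miR-122-5p, summed to 20449, 18947 and 20847 with corn oil and to 14955, 17730 and 2750 with CCl4, lowest on CCl4 replicate 3. The 2 endothelial miRNAs, led by miR-126-3p, summed to 658, 563 and 677 and to 824, 821 and 3732, and the 2 red cell miRNAs on the array, led by miR-451a, to 466, 754 and 700 and to 730, 315 and 2135. Of the hepatocyte, endothelial, red cell and endocrine lists, 4, 2, 2 and 1 miRNAs were tested. Limma called 0 of them, with 0 at an unadjusted p under 0.05, where it called 20 of all 166 (12.0%). With so few tested, nothing is read from these counts.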

How the data were processed

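The authors scanned 6 Agilent miRNA arrays and extracted them with Agilent Feature Extraction 11.0.1.1. The deposited scanner values are background-subtracted intensity values on a linear scale, not normalized. The deposited series table holds linear intensity values of 111 miRNAs, quantile normalized by the authors (median 148 in each column), and was used as an alternative. Members are all mouse miRNAs named miR-132 or miR-212. The members and the marker and pathway lists were chosen with earlier results of these data known.

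Control spots were left out. Total signals of the 166 miRNAs with a detection flag on every array were log2 transformed and quantile normalized, and limma 3.58.1 in R 4.3.3 (lmFit, eBayes) fitted treatment. The study's methods name the detection filter, limma, quantile normalization, a p below 0.05 and a fold change above 2. They name no adjustment of p, while the study's list of changed miRNAs gives an adjusted p. The signal column, the log2 step and the Benjamini-Hochberg method were chosen here, and the authors' own filter left 111 miRNAs. A call needed a fold change above 2 and an adjusted p (Benjamini-Hochberg) below 0.05. The fit was tested on simulated data, in 50 runs with 20 of 166 miRNAs changed by 2 on the log2 scale. It called 70.8% of these, with a median of 0 and at most 3 false calls, so changes of this size can be missed. Other steps used Python 3.11.15 with pandas 2.3.3, numpy 2.4.6 and matplotlib 3.10.9. Named were the members, the 5 miRNAs nearest to miR-212-3p in profile and miRNAs with a member's seed. Also named were those of the 5 nearest miRNA genes per side and the 3 most shifted tested miRNAs of the endotoxin and fibrosis lists. Added after their values were seen were miR-199a-5p, miR-146a-5p, miR-146b-5p, miR-147-3p, miR-155-5p, miR-375-3p and the undetected neuron miRNAs. So were the test values of miR-223-3p and miR-342-3p. MiRNA sequences and gene neighbours are from RefSeq (GRCm38.p6). The number of arrays, 3 per group, limits the precision: an exact test of 3 against 3 cannot go below p = 0.10.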

Additional observations from a re-analysis of the deposited data

How the results depend on the processing

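The quantile-normalized difference of miR-212-3p, −1.32, kept its sign under all alternatives run but 1: with no normalization it was 0.094. It was −0.87 with normexp on the median spot signal (the files hold no mean signal to use), and, in alternatives chosen after seeing the data, −0.055 for totals divided by the feature size fraction, −0.10 for unnormalized spot medians, −0.27 with spike-in scaling and −0.11 unnormalized without CCl4 replicate 3. Leaving out each array gave −1.53 to −1.10, and the other 8 alternatives −1.47 to −1.06. The cause was not tested. MiR-132-3p was measured on 1 array by A_54_P1055 alone, chosen after seeing the data, and its difference in spot signal was 47.9 without scaling, or 22.9 with CCl4 replicate 3 also left out (chosen after seeing the data). Against 20 limma calls, 8 of them lower, there were 16 and 5 with 75th percentile scaling, 27 and 17 with median scaling, 18 and 0 with no normalization, 4 and 0 with normexp, 32 and 16 for miRNAs detected throughout at least 1 group, 6 and 0 with no detection filter and 12 and 5 in the deposited values. At an unadjusted p under 0.05, lower miRNAs numbered 0, 34 and 40 where limma called 0. Leaving out each array gave 5 to 28 calls and 0 to 12 lower ones (at least 14 at an unadjusted p); each corn oil array and CCl4 replicate 1 left out gave 5 to 7. Scaling to the 75th percentile of all miRNAs could not be run, since that percentile was 0.1, the value of undetected miRNAs, on 5 of 6 arrays. The corn oil replicate numbers are those of the scanner files; corn oil columns 1, 2 and 3 of the deposited table match scanner replicates 2, 3 and 1 in rank, so the numbering is unsettled, which leaves group means as they are. Replicate numbers did not pair the samples (correlations of deviations −0.18, 0.11 and 0.03, and −0.07, −0.27 and −0.01 by the deposited numbering); with the scanner numbering, the replicate block gave 6 calls, 0 lower (25 at an unadjusted p), and left the difference at −1.32. Dim signals limit miR-132-3p in the corn oil livers and both 5p arms.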
